A study of Homo sapiens with 12 samples.

Results

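The genes described here are 58 genes of DNA replication and S phase entry, taken as a named list that runs from origin licensing to the replication fork. A gene counted as measured where its symbol stood in at least 1 of the 3 tables that the authors deposited, each of which lists genes called different from control in 1 treated culture. By that rule 33 of the 58 genes had values, out of 5308 genes listed in the series, and 20 had values in all 3 tables, out of 1042 such genes. Of these genes, 26 stood among the 4279 listed in lactic acidosis, 27 among the 3087 in lactosis and 24 among the 1721 in acidosis. The other 25 genes stand in none of the tables, so they have no value here, and nothing is shown about whether they changed.

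The RNA came from KKU-213A, an established human cell line of cholangiocarcinoma, which is bile duct cancer. Lactic acidosis cells were kept in low-glucose medium with L-lactate and the pH buffer HEPES, each at 25 mM, at pH 6.7, a medium brought in stepwise over passages. Lactosis cells had 25 mM L-lactate at pH 7.4, acidosis cells had 25 mM HEPES at pH 6.5, and control cells were untreated in the same low-glucose medium. Each group had 3 libraries of poly(A) RNA, read as single ends of 75 nt, and treated cells went through 5 or more passages in their media. HEPES is stated for both acid media and passages for treated cells, so acid and HEPES cannot be told apart, nor can a treatment and the time in its medium. The labels do not say that libraries of a group were separate cultures, so p-values measure a spread between libraries that may be technical. In bulk RNA, a larger share of cells in S phase and more of these transcripts per cell cannot be told apart.

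Each value per library is the authors' expression value per gene length, called the deposited value below. Read depth is unknown, because the tables hold no library totals. KRT19, a keratin of bile duct epithelium, had deposited values of 2596.21 or above in every library for which it is given. A pair of treated libraries stood apart from the others of their group by muscle genes that the list of 12 muscle markers holds. The 5 of them listed in lactosis summed to 0.47, 48.09 and 0.53 in the lactosis libraries, against 0.78, 0.64 and 1.48 in control. The 8 listed in lactic acidosis summed to 18.37, 51.59 and 16.88 in the lactic acidosis libraries, against 38.33, 49.85 and 57.8 in control. The sum of 51.59 thus lay within the control range. Of these 8 genes, 5 were listed higher and 3 lower. Among the 5, ACTA1 stood at 0.43, 19.65 and 0.56, against 0.58, 0.35 and 1.03 in control. Replicate 2 of both treated groups was the high library, CKM and DES are listed at 0 in lactosis replicate 1, and none of the 12 markers is listed in acidosis. The part of these libraries in the results was not tested, and values without them are given with the counts. The control libraries also differed among themselves on most replication genes, with replicate 1 low and replicate 3 high, as described after the genes.

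A human cell copies its genome from many origins. In G1, the origin recognition complex with CDC6 and CDT1 loads the MCM helicase onto DNA, which licenses the origin. At S phase entry, the kinase CDC7 with DBF4 and the CDKs bring in CDC45 and the GINS complex to start the helicase, and polymerases, the PCNA clamp and its loaders then copy both strands. E2F transcription factors, held back by RB proteins until cyclin D and cyclin E kinases act, drive transcription of many of these genes. In the adult bile duct most epithelial cells are out of the cell cycle, whereas a growing carcinoma line passes through S phase continually.

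The promoters of these genes were read for letters that E2F factors are known to bind. Since E2F factors drive many of these genes, the letters are not independent of the choice of genes. The windows run from 250 bases before to 50 bases after each annotated start of a gene in RefSeq, build GRCh38.p14, which gives 35116 windows. A gene with several starts was counted as holding the motif if any of its windows held a match. The motif was searched as TTTGGCGC, TTTCGCGC, TTTCCCGC or TTTGCCGC on both strands. Promoters were found for 49 of the 58 genes, and 25 of the 49 (51.0%) held at least 1 match, against 1090 of 27305 genes with a promoter (3.99%). Of the genes with values in all 3 tables, 17 had a promoter and 9 of them held a match. These 9 are printed because they join the promoter letters to expression values in every group. Each stretch is 150 bases on the gene's own strand, from 100 bases before to 50 bases after a start whose window held a match, with the E2F letters in capitals. The start printed for TIPIN lies inside that gene, and its other start, at the gene's 5′ end, had no match. The stretches of CDC6, GINS2, GINS3, POLA2 and POLE2 also lie within the annotated gene. That of GINS3 (gene at chr16:58295080-58406144) is far from its 5′ end.
CDC6 (chr17:40287779-40287928, plus strand): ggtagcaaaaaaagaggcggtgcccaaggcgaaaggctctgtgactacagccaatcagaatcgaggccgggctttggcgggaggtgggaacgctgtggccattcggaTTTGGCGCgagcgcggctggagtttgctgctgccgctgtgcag
CLSPN (chr1:35769929-35770078, minus strand): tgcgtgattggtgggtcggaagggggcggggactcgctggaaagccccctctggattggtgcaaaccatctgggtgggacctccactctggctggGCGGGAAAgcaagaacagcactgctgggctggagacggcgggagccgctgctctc
GINS1 (chr20:25407573-25407722, plus strand): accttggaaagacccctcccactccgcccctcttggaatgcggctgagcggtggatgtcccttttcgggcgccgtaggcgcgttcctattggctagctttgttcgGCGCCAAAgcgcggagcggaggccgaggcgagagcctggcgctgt
GINS2 (chr16:85688905-85689054, minus strand): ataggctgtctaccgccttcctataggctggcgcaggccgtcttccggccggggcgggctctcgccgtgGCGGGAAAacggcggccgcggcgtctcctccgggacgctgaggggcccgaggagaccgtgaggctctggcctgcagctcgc
GINS3 (chr16:58392371-58392520, plus strand): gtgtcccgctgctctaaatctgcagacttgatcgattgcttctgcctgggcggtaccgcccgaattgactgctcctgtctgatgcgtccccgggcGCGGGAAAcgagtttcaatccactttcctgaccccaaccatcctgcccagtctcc
PCNA (chr20:5126573-5126722, minus strand): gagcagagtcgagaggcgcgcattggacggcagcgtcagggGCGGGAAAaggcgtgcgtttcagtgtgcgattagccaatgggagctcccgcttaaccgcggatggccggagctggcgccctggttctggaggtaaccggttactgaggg
POLA2 (chr11:65261862-65262011, plus strand): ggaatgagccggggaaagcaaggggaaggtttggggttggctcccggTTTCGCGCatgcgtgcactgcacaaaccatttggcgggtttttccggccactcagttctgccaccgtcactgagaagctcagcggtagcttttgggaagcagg
POLE2 (chr14:49688165-49688314, minus strand): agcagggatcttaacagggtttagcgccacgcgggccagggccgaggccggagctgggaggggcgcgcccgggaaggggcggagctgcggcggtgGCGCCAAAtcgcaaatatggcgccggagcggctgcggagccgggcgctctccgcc
TIPIN (chr15:66356636-66356785, minus strand): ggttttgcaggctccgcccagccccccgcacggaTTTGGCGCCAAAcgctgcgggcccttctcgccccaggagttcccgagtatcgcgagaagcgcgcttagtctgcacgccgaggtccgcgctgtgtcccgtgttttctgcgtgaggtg

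In CLSPN, GINS3 and POLE2 the capitals begin 5 bases before the start site and in PCNA 59 bases before it, whereas in CDC6 and GINS1 they lie just after it. Over all 34 matches in these genes, 28 (82.4%) began within 100 bases before the start or after it, against 50.2% of all 1219 matches. The median first base lay at -37 in these genes and at -100 in all promoters. A pair of matches shares bases in 4 places, TIPIN among them, so the matches are not all separate. The share with a match was 14 of 29 (48.3%) for genes listed in at least 1 table and 11 of 20 (55.0%) for genes listed in none. MCM2, MCM6 and MCM7 are among the genes with a match and no expression value. The CCAAT box, which shared bases with the E2F letters in 1 place, was found in 29 of the 49 promoters (59.2%), against 39.7% of all genes. A match is a run of letters in a window and says nothing about whether a factor was bound.

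**Figure D1:**
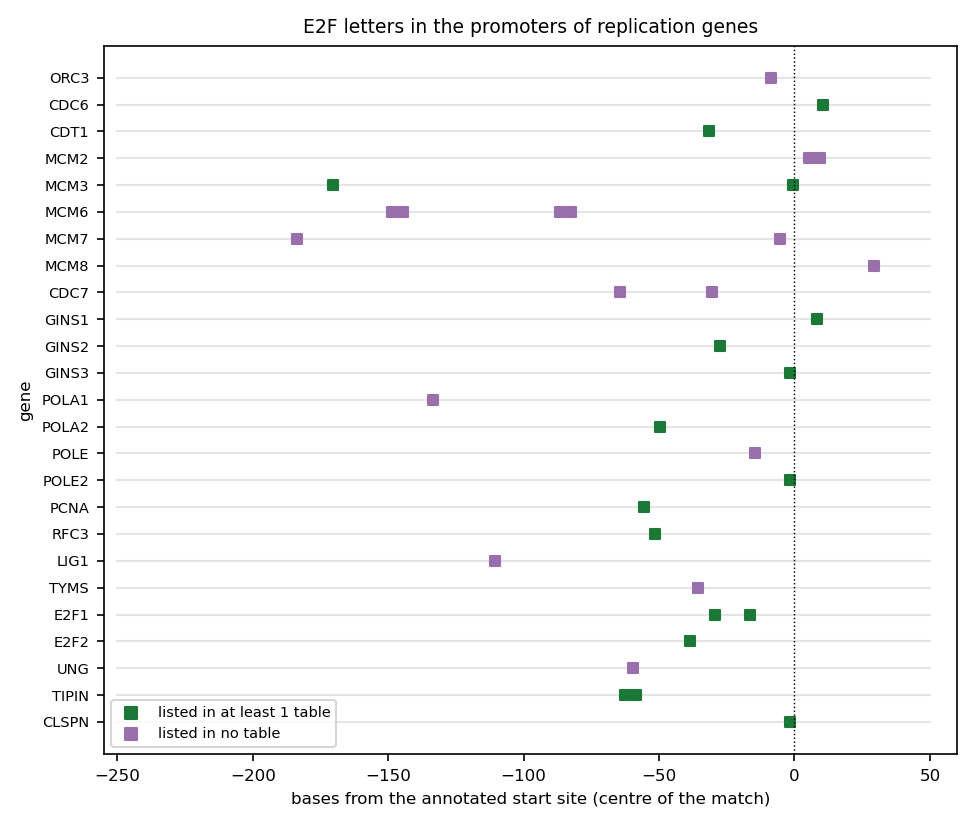
Positions of E2F letters in the promoters of the 25 replication genes that hold a match, 1 row per gene, with bases from the annotated start site on the horizontal axis and each square at the centre of a match. Green squares are genes listed in at least 1 table and violet squares genes listed in none; 28 of the 34 matches begin from 100 bases before the start onward, in both kinds of gene.

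Nearly all listed replication genes were higher in the treated cells than in control. The authors listed 26 of 26 as higher in lactic acidosis, where 58.9% of all listed genes were higher and 41.1% lower. In lactosis 26 of 27 were listed higher, against 59.3% of all listed genes, and CDT1 was the 1 listed lower, against 40.7%. In acidosis 24 of 24 were listed higher, where 61.1% of all listed genes were higher and 38.9% lower. For the listed replication genes, the median log2 fold change in the authors' deposited tables stood at 0.84 for lactic acidosis, 0.98 for lactosis and 0.68 for acidosis. The medians over all genes listed higher were 0.61, 0.57 and 0.47 in the same order of groups. Replication genes listed at least 2-fold higher numbered 7 for lactic acidosis, 9 for lactosis and 4 for acidosis, where the shares over all listed genes were 10.5%, 8.10% and 4.01%.

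The spread between libraries was set against these differences with limma on log2(deposited value + 1), with Benjamini-Hochberg adjusted p under 0.05 over all genes of a table. The authors chose the listed genes on these same libraries, so the test describes the spread and is no independent evidence. In lactic acidosis 25 of 26 replication genes rose (55.3% of all listed genes), in lactosis 25 of 27 (46.5%) and in acidosis 20 of 24 (35.9%). These shares take in genes listed lower. Limma called 2368 genes higher in lactic acidosis, where 2521 were listed higher, so 25 of 26 is near that background. The same counts were 1435 and 1830 in lactosis, and 617 and 1051 in acidosis. Every treated library was above every control library for 26 of 26 genes in lactic acidosis, 25 of 27 in lactosis and 22 of 24 in acidosis. Over all listed genes that share was 58.2%, 52.1% and 50.2% in the same order, and over the genes listed higher it was 98.8%, 87.9% and 82.2%. The counts that rose by limma fell to 14 without lactic acidosis replicate 2, to 15 and 14 without lactosis replicate 1 or 3, and to 12 and 5 without acidosis replicate 2 or 1. The median log2 difference moved less. It was 0.94 without lactic acidosis replicate 2, against 0.97 with all libraries, 1.00 and 0.94 without lactosis replicate 1 or 3, against 0.99, and 0.70 and 0.67 without acidosis replicate 2 or 1, against 0.69. Without lactosis replicate 2, 19 of 27 rose. Shares over all listed genes are not given for fits that leave out a library. Whether the loss of calls is particular to replication genes was not tested.

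**Figure D2:**
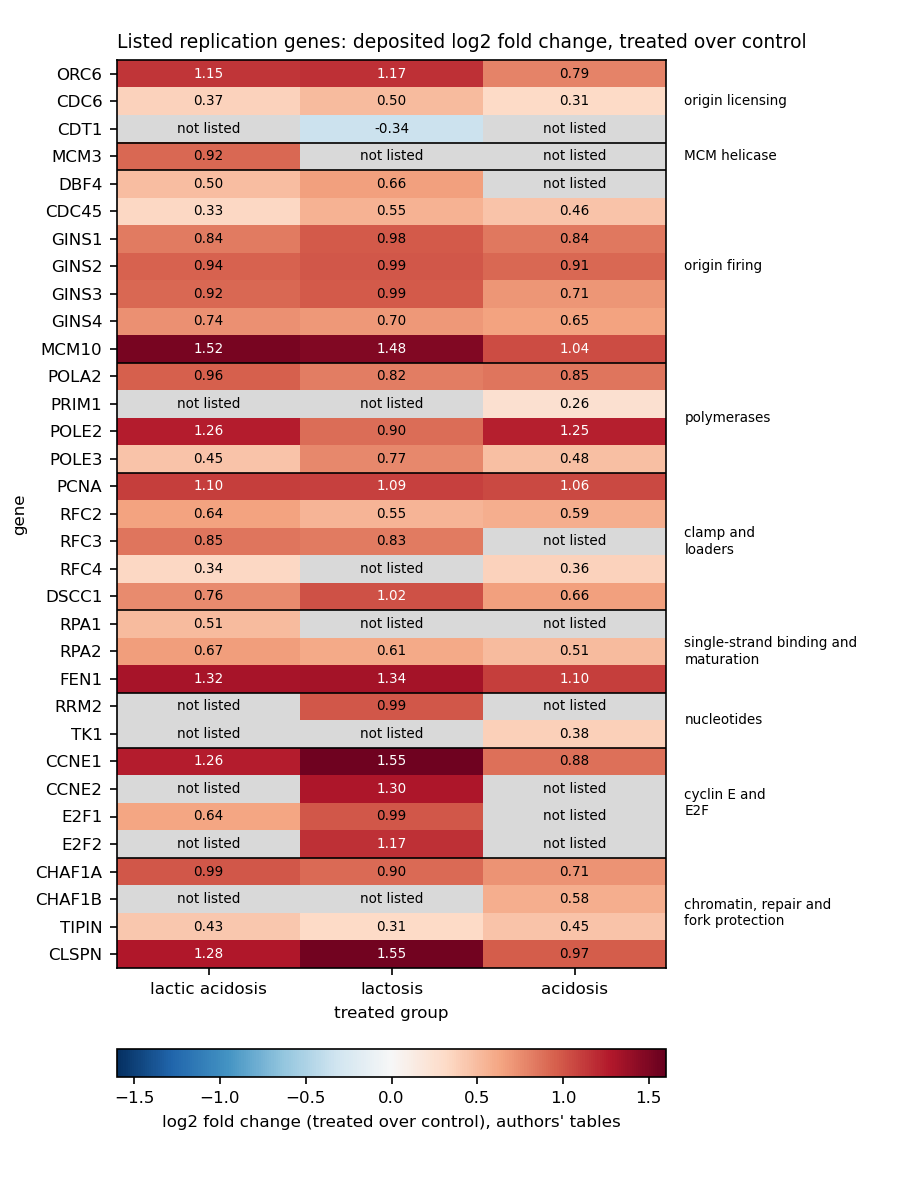
Log2 fold change of each listed replication gene, treated over control, as the authors deposited it, with genes in rows grouped by step and the 3 treated groups in columns. Grey cells are not listed; CDT1 in lactosis, at -0.34, is the 1 blue cell, and MCM10, CLSPN and CCNE1 hold the darkest red cells, up to 1.55.

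Among the licensing genes, ORC6 and CDC6 were listed in all tables, CDT1 in lactosis, and ORC1, ORC2, ORC3 and ORC5 in none. ORC6, a subunit of the origin recognition complex (chr16:46689643-46698394, GRCh38), had deposited values of 71.06, 79.37 and 73.41 in lactic acidosis, 70.82, 74.30 and 68.69 in lactosis, 51.39, 51.96 and 58.77 in acidosis, and 22.25, 33.25 and 39.54 in control. No treated library overlapped control, and acidosis lay between control and the other treated groups. ORC6 rose by 1.25 on the log2 scale in lactic acidosis (SE 0.200, adjusted p = 0.00103, limma), 1.18 in lactosis (SE 0.200, adjusted p = 0.00178) and 0.79 in acidosis (SE 0.197, adjusted p = 0.00736). Of its 75-base windows, 12.5% occur in another gene, so some of its reads could be shared.

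CDC6, which loads the helicase with CDT1, stood at 82.35, 86.59 and 80.96 in lactic acidosis, 84.91, 76.29 and 98.73 in lactosis, 79.64, 71.21 and 73.51 in acidosis, and 47.85, 72.01 and 60.72 in control. The acidosis libraries overlapped control, and CDC6 was the listed gene with the lowest ratio of control replicate 3 over control replicate 1, at 1.27. It rose in lactic acidosis (log2 difference 0.48, adjusted p = 0.0231, limma) and in lactosis (0.53, adjusted p = 0.0260), and did not pass in acidosis (0.33, adjusted p = 0.103). CDT1 stood at 71.83, 65.62 and 65.12 in lactosis and at 66.05, 94.35 and 94.27 in control. The control library nearest the lactosis values was replicate 1, which lay between them. The log2 fold change of CDT1 was -0.34 in the authors' deposited table, and limma gave -0.31 with an adjusted p of 0.109. Without control replicate 1 CDT1 was lower by limma, and likewise after the values were rescaled.

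Of the 7 MCM genes MCM2 to MCM8, subunits or relatives of the helicase, MCM3 alone was listed, in lactic acidosis. MCM3 (chr6:52264009-52284881) had deposited values of 237.81, 235.22 and 227.62 in lactic acidosis and 54.44, 129.00 and 172.47 in control. All lactic acidosis libraries were above control, and control replicate 3 was far above replicate 1. MCM3 rose by 1.12 (SE 0.349, adjusted p = 0.0165, limma). Whether the other MCM genes changed cannot be read from these tables, since genes outside a table have no values in it.

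Origin firing was the step with the most listed genes, 7 of 8, and CDC7 was the 1 without a value. MCM10, which helps activate the loaded helicase, had the highest fold change of the step (chr10:13161554-13211104). Its deposited values were 29.89, 33.66 and 30.33 in lactic acidosis, 29.48, 26.50 and 29.88 in lactosis, 23.41, 19.46 and 19.79 in acidosis, and 3.52, 11.50 and 16.72 in control. All treated libraries were above control, but control replicate 3 was 4.75 times control replicate 1. MCM10 rose by 1.69 in lactic acidosis (SE 0.411, adjusted p = 0.00627, limma), 1.56 in lactosis (SE 0.408, adjusted p = 0.0102) and 1.12 in acidosis (SE 0.338, adjusted p = 0.0152).

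The 4 GINS genes, which form the GINS complex of the active helicase, rose in all treated groups. GINS1 stood at 24.16, 24.70 and 24.55 in lactic acidosis, 25.20, 25.60 and 25.80 in lactosis, 25.29, 21.34 and 22.04 in acidosis, and 7.39, 12.26 and 19.58 in control. GINS2 stood at 131.90, 128.15 and 125.10 in lactic acidosis, 125.13, 129.92 and 121.74 in lactosis, 114.57, 115.24 and 121.72 in acidosis, and 35.50, 62.76 and 93.72 in control. For both genes the lowest treated library was above control replicate 3, the highest control. GINS3 had 30.68, 32.70 and 30.46 in lactic acidosis, 30.65, 28.90 and 34.24 in lactosis, 26.38, 25.25 and 24.08 in acidosis, and 9.94, 17.49 and 19.96 in control. GINS4 had 19.93, 23.33 and 23.27 in lactic acidosis, 20.12, 21.11 and 19.80 in lactosis, 21.48, 19.28 and 17.67 in acidosis, and 7.46, 14.22 and 16.22 in control. Again no groups overlapped control, and acidosis replicate 3 of GINS4 came nearest to it. The limma log2 differences of the GINS genes ran from 0.83 to 1.10 in lactic acidosis, 0.71 to 1.07 in lactosis and 0.65 to 0.97 in acidosis. The exons of GINS4 overlap AC009630.2 and AC009630.1 on the opposite strand over 23.6% of their bases in all, those of GINS3 overlap AC009118.2 over 10.9%, and whether strand was used in counting is not stated.

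CDC45, the helicase cofactor that GINS joins, had smaller differences. Its deposited values were 23.87, 21.92 and 22.38 in lactic acidosis, 24.68, 25.85 and 26.20 in lactosis, 23.62, 21.60 and 24.57 in acidosis, and 12.51, 18.47 and 20.34 in control. No treated library overlapped control, yet lactic acidosis missed the threshold (log2 difference 0.42, adjusted p = 0.0532, limma), while lactosis (0.58, adjusted p = 0.0196) and acidosis (0.45, adjusted p = 0.0490) passed. DBF4, the activator of CDC7, was listed in lactic acidosis at 25.71, 28.80 and 25.27 and in lactosis at 27.12, 28.69 and 28.27, against 11.12, 20.64 and 21.64 in control. It rose by 0.61 (adjusted p = 0.0334, limma) and by 0.68 (adjusted p = 0.0244), with no overlap. Of the 75-base windows of DBF4, 15% occur in another gene, DBF4P1, so some of its reads could be shared.

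Of 10 polymerase genes, 4 were listed, all of them accessory or primase subunits. POLA1, POLD1 and POLE, which encode catalytic subunits, stand in no table, nor do POLD2, POLD3 and PRIM2. POLE2, a subunit of polymerase epsilon (chr14:49643555-49688422), had deposited values of 35.66, 45.18 and 38.37 in lactic acidosis, 28.22, 28.75 and 30.14 in lactosis, 35.00, 38.35 and 36.44 in acidosis, and 7.26, 18.00 and 22.24 in control. All treated libraries were above control, and here lactosis was the lowest treated group. POLE2 rose by 1.40 in lactic acidosis (SE 0.332, adjusted p = 0.00567, limma), 0.96 in lactosis (SE 0.324, adjusted p = 0.0251) and 1.29 in acidosis (SE 0.278, adjusted p = 0.00349).

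POLE3, a small histone-fold subunit of the same enzyme, was highest in lactosis. Its values were 225.00, 245.30 and 230.92 in lactic acidosis, 267.76, 271.74 and 284.04 in lactosis, 225.87, 217.04 and 222.05 in acidosis, and 118.96, 162.24 and 199.78 in control. All treated libraries were above control, and POLE3 rose in all treated groups, by 0.57 (adjusted p = 0.0200, limma), 0.80 (adjusted p = 0.00681) and 0.50 (adjusted p = 0.0359) in lactic acidosis, lactosis and acidosis. POLA2, the accessory subunit of polymerase alpha, stood at 19.93, 23.39 and 19.69 in lactic acidosis, 18.65, 15.55 and 19.79 in lactosis, 18.75, 16.56 and 18.97 in acidosis, and 5.72, 10.93 and 14.18 in control. It rose in all treated groups without overlap (log2 differences 1.04, 0.82 and 0.84), but 52.5% of its 75-base windows occur in the overlapping gene AP000944.2, so its level is uncertain. PRIM1, the catalytic primase subunit, was listed in acidosis, at 106.51, 98.21 and 97.70 against 63.56, 89.51 and 100.56 in control. These groups overlapped, and limma gave 0.28 with an adjusted p of 0.165. PRIM1 shares 22.5% of its windows with another gene.

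PCNA, the sliding clamp that holds polymerases on DNA, had the highest deposited values of the listed replication genes in each treated group (chr20:5114953-5126626). They were 453.98, 458.67 and 431.37 in lactic acidosis, 433.48, 407.68 and 416.23 in lactosis, 399.06, 395.83 and 416.53 in acidosis, and 113.81, 187.15 and 296.71 in control. The 9 treated libraries lay within a narrow band above control replicate 3, whereas the control libraries differed among themselves by more than the treated ones did. PCNA averaged 448 ± 14.6 in lactic acidosis, 419 ± 13.1 in lactosis, 404 ± 11.1 in acidosis and 199 ± 92.0 in control (SD, n = 3 each). It rose by 1.27 in lactic acidosis (SE 0.289, adjusted p = 0.00475, limma), 1.18 in lactosis (SE 0.288, adjusted p = 0.00812) and 1.12 in acidosis (SE 0.253, adjusted p = 0.00427).

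RFC subunits load the clamp, and RFC2, RFC3 and RFC4 were listed while RFC1 and RFC5 were not. RFC2 had 90.71, 97.44 and 91.46 in lactic acidosis, 82.94, 78.89 and 87.01 in lactosis, 81.24, 81.22 and 86.57 in acidosis, and 40.41, 60.24 and 68.24 in control. All treated libraries were above control, with log2 differences of 0.75, 0.58 and 0.58 that passed limma in each group. DSCC1, part of an alternative clamp loader used in sister chromatid cohesion, had 43.05, 41.97 and 37.30 in lactic acidosis, 43.69, 45.75 and 49.67 in lactosis, 36.11, 34.06 and 36.20 in acidosis, and 14.51, 21.85 and 32.32 in control. Lactosis was the highest group for DSCC1, and acidosis replicate 2 lay just above control replicate 3. DSCC1 rose by 0.87 (adjusted p = 0.0112, limma), 1.05 (adjusted p = 0.00646) and 0.68 (adjusted p = 0.0217) in lactic acidosis, lactosis and acidosis. RFC3 rose in lactic acidosis (1.01) and lactosis (0.91) and is not listed in acidosis. RFC4 is listed in lactic acidosis, where it rose by 0.45 (adjusted p = 0.0418, limma), and in acidosis, where 0.38 missed the threshold (adjusted p = 0.0793).

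FEN1, the flap nuclease that trims Okazaki fragments on the lagging strand, was the leading gene of its step (chr11:61792637-61797244). Its deposited values were 206.33, 177.92 and 193.52 in lactic acidosis, 190.10, 168.69 and 194.55 in lactosis, 161.93, 147.01 and 153.81 in acidosis, and 44.97, 67.55 and 107.47 in control. Every treated library was well above every control library, and acidosis was the lowest treated group. FEN1 rose by 1.47 in lactic acidosis (SE 0.268, adjusted p = 0.00183, limma), 1.40 in lactosis (SE 0.268, adjusted p = 0.00287) and 1.15 in acidosis (SE 0.238, adjusted p = 0.00267). RPA2, a subunit of the protein that coats single-stranded DNA, had 101.28, 105.68 and 90.98 in lactic acidosis, 92.00, 88.90 and 92.03 in lactosis, 89.08, 78.69 and 81.92 in acidosis, and 38.10, 63.37 and 75.58 in control. It rose in each group without overlap (log2 differences 0.79, 0.67 and 0.54). RPA1, the DNA-binding subunit, was listed in lactic acidosis alone, at 103.76, 106.20 and 102.13 against 46.50, 73.34 and 87.29 in control, and rose by 0.63 (adjusted p = 0.0223, limma). RPA3, the ligase LIG1 and the nuclease DNA2 stand in no table.

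Of 4 genes of nucleotide supply, 2 were listed, each in 1 table. RRM2, the regulated subunit of ribonucleotide reductase (chr2:10120698-10131419), was listed in lactosis, at 261.21, 237.88 and 274.65 against 69.33, 138.83 and 184.25 in control. All lactosis libraries were above control, and RRM2 rose by 1.08 (SE 0.301, adjusted p = 0.0128, limma). AC007240.1, a gene on the same strand, shares 27.5% of its windows. TK1, the thymidine kinase of the salvage pathway, was listed in acidosis, at 286.31, 291.84 and 307.99 against 187.16, 234.72 and 262.49 in control. The groups did not overlap, but the log2 difference of 0.38 missed the threshold (adjusted p = 0.0590, limma). RRM1 and the thymidylate synthase gene TYMS stand in no table.

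All 4 genes of cyclin E and E2F were listed in lactosis, but CCNE1 alone in acidosis. CCNE1, which encodes the cyclin E1 that activates CDK2 at S phase entry (chr19:29811898-29824308), had deposited values of 17.97, 16.33 and 15.40 in lactic acidosis, 18.91, 16.88 and 22.06 in lactosis, 12.77, 11.67 and 11.21 in acidosis, and 3.26, 6.95 and 9.68 in control. All treated libraries were above control, and acidosis lay between control and the other treated groups. CCNE1 rose by 1.30 in lactic acidosis (SE 0.288, adjusted p = 0.00426, limma), 1.50 in lactosis (SE 0.293, adjusted p = 0.00316) and 0.85 in acidosis (SE 0.252, adjusted p = 0.0139). CCNE2, its paralogue, was listed in lactosis at 35.94, 37.06 and 39.69 against 6.91, 16.17 and 23.65 in control, and rose by 1.36 (adjusted p = 0.00868, limma). Exons of CCNE2 overlap INTS8 and AC087752.4, both on the opposite strand, over 37.1% of their bases in all, so reads of these genes cannot be told apart without strand.

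E2F1, an activating E2F factor, had 34.27, 31.89 and 33.54 in lactic acidosis and 40.72, 40.63 and 39.19 in lactosis, against 11.87, 22.05 and 27.14 in control. Both treated groups were above control without overlap, and lactosis was above lactic acidosis in every library. E2F1 rose by 0.75 in lactic acidosis (adjusted p = 0.0223, limma) and by 1.02 in lactosis (adjusted p = 0.00859). E2F2, of the same family, was the listed replication gene with the lowest level, at 7.16, 6.03 and 8.16 in lactosis against 1.21, 3.57 and 4.90 in control, and rose by 1.05 (adjusted p = 0.0165, limma).

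CLSPN encodes claspin, which links the moving fork to the checkpoint kinase CHK1 (chr1:35720218-35769967). Its deposited values were 18.43, 19.51 and 19.16 in lactic acidosis, 21.23, 22.12 and 21.45 in lactosis, 15.58, 13.49 and 13.87 in acidosis, and 3.76, 7.55 and 11.24 in control. The 4 groups did not overlap at all, with lactosis highest, then lactic acidosis, acidosis and control. CLSPN rose by 1.34 in lactic acidosis (SE 0.289, adjusted p = 0.00385, limma), 1.51 in lactosis (SE 0.288, adjusted p = 0.00286) and 0.95 in acidosis (SE 0.254, adjusted p = 0.00983). CHAF1A, the large subunit of the CAF-1 complex that places histones behind the fork, had 55.56, 51.74 and 57.33 in lactic acidosis, 52.60, 43.79 and 49.79 in lactosis, 45.14, 40.76 and 40.69 in acidosis, and 14.16, 28.98 and 35.90 in control. It rose in each group (log2 differences 1.13, 0.95 and 0.75), and its partner CHAF1B was listed in acidosis, where it rose by 0.59 (adjusted p = 0.0390, limma).

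TIPIN, a fork protection protein that works with claspin, stood at 72.25, 79.86 and 73.54 in lactic acidosis, 67.35, 59.96 and 69.18 in lactosis, 73.57, 69.54 and 69.97 in acidosis, and 38.06, 55.42 and 63.45 in control. Lactosis replicate 2 lay below control replicate 3, and the lactosis difference missed the threshold (0.35, adjusted p = 0.112, limma), while 0.55 in lactic acidosis (adjusted p = 0.0241) and 0.46 in acidosis (adjusted p = 0.0453) passed. The exons of TIPIN hold the pseudogene RPL9P25 on the same strand over 21.0% of their bases. UNG, the glycosylase that removes uracil from DNA, stands in no table.

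**Figure D3:**
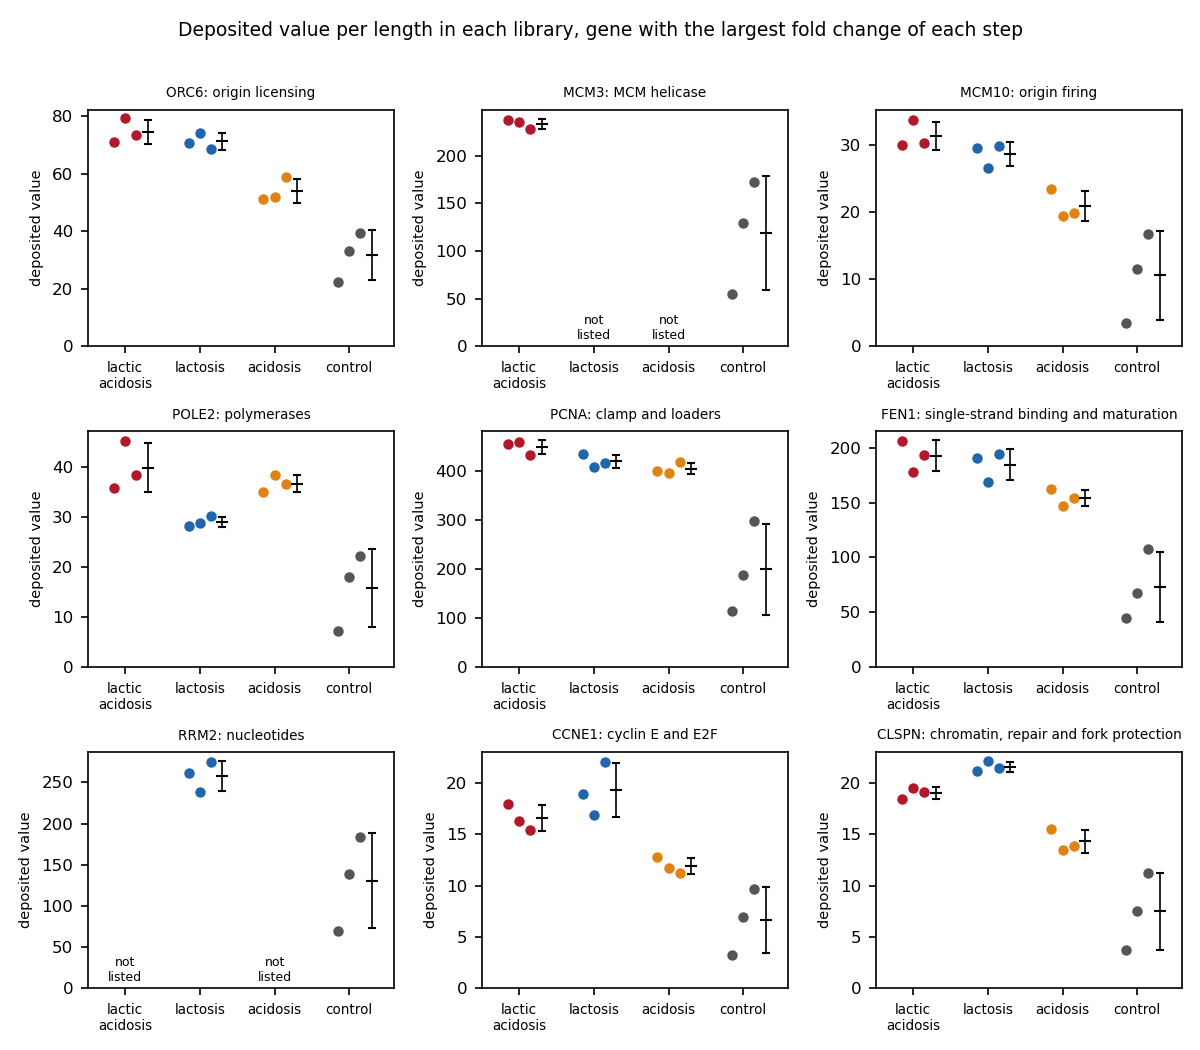
Deposited value per gene length of each library (vertical axes, from 0) for the gene with the largest fold change of each step, in lactic acidosis, lactosis, acidosis and control, with bars for the mean and SD (n = 3). Treated libraries lie close together and above control in each panel, and control points spread from a low replicate 1 to a high replicate 3; MCM3 and RRM2 have values in 1 treated group.

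The control libraries spread more than the treated ones on these genes. Control replicate 1 was the lowest and replicate 3 the highest for 25 of the 26 genes listed in lactic acidosis, with CDC6 as the exception. The same held for 25 of 27 in lactosis, all but CDC6 and CDT1, and for 23 of 24 in acidosis, all but CDC6. Over all genes listed higher, this order held for 75.4%, 77.8% and 83.5% in the 3 tables. The median ratio of control replicate 3 over control replicate 1 was 2.26 for the replication genes of the lactic acidosis table, against 1.51 for all genes listed higher there. It was 2.39 against 1.47 in the lactosis table and 2.20 against 1.47 in the acidosis table. Rescaling each library by a weight fitted to the authors' group means brought these ratios to 1.75 against 1.17 in the lactic acidosis table and 1.84 against 1.13 in the lactosis table. Within a treated group, the highest library was a median of 1.11, 1.10 and 1.11 times the lowest in lactic acidosis, lactosis and acidosis.

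The size of the difference changes with the control library it is read against. Set against control replicate 3 alone, the treated mean was higher by a median log2 of 0.45 for lactic acidosis, 0.46 for lactosis and 0.27 for acidosis. The same medians over all genes listed higher were 0.47, 0.38 and 0.24. Without control replicate 1, the median limma log2 difference of the listed replication genes was 0.61, 0.64 and 0.39 for these groups, against 0.97, 0.99 and 0.69 with all libraries. MCM10 was 1.12 higher in lactic acidosis without it, PCNA 0.92 and ORC6 1.02. The counts that passed without it were 25 of 26, 25 of 27 and 16 of 24. Shares over all listed genes are not given for this refit, so these counts have no background. The part of the control spread in the result was not tested.

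**Figure D4:**
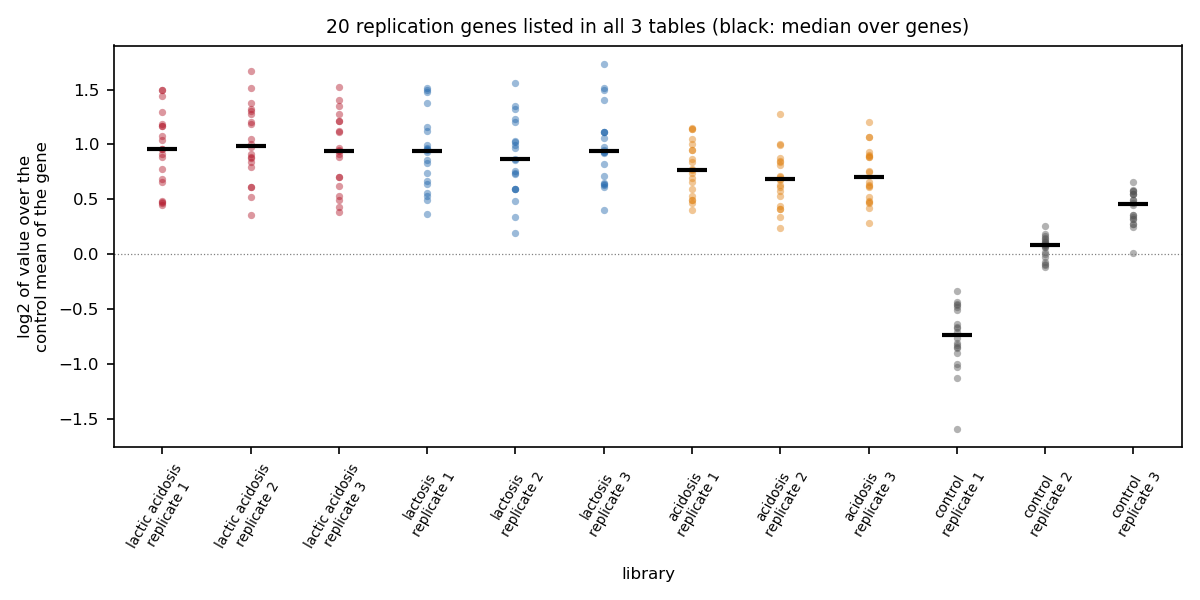
Log2 of each library's deposited value over the control mean of the gene, for the 20 replication genes with values in all 3 tables (points) and their median (black bars), by library. Medians were 0.94 to 0.99 in lactic acidosis, 0.87 to 0.94 in lactosis and 0.68 to 0.77 in acidosis, against -0.73, 0.09 and 0.46 in control replicates 1, 2 and 3.

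The treated groups were also set against each other directly, which leaves the control libraries out of the difference, for genes listed in both tables. Of the 20 replication genes with values in all tables, the group mean was highest in lactic acidosis for 13 and in lactosis for 7. It was lowest in acidosis for 15, lactosis for 4 and lactic acidosis for 1. The same ranking over all 1042 genes of all tables was not counted, so these counts have no background. The median of lactic acidosis minus lactosis was 0.06 over the replication genes and 0.11 over all genes in both tables. After rescaling these medians were -0.02 and 0.03. On the deposited values, lactic acidosis against lactosis had the fewest calls. Of 23 genes in both tables, POLE2 was higher in lactic acidosis (0.43, SE 0.0968, adjusted p = 0.0112, limma), where 15.7% of all 2344 genes tested were higher. E2F1 was lower in lactic acidosis (-0.27, SE 0.0762, adjusted p = 0.0323, limma), where 4.78% were lower. For 22 of the 23 the 95% interval of the difference lay within 0.5 of 0 on the log2 scale. The same held for 15 of 21 genes in lactic acidosis against acidosis and 15 of 20 in lactosis against acidosis. The share over all genes tested was not computed.

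Lactic acidosis against acidosis showed 8 of 21 genes higher, where 38.7% of all 1304 genes tested were higher, so the share is near the background. They were CCNE1, CHAF1A, CLSPN, FEN1, GINS3, MCM10, ORC6 and RPA2. The largest difference was that of MCM10, 31.3 ± 2.06 in lactic acidosis and 20.9 ± 2.19 in acidosis (SD, n = 3 each; log2 difference 0.56, SE 0.0915, adjusted p = 0.000979, limma). The median over the 21 genes was 0.18 and over all genes 0.15. Lactosis against acidosis showed 7 of 20 higher, where 16.4% of all 1173 genes tested were higher, and POLE2 lower, where 7.50% were lower. CCNE1 had the largest difference, 19.3 ± 2.61 in lactosis and 11.9 ± 0.802 in acidosis (SD, n = 3 each; 0.65, SE 0.104, adjusted p = 0.00411, limma). CLSPN followed at 0.56 (SE 0.0758, adjusted p = 0.00203, limma), and CLSPN, CCNE1, GINS3, MCM10 and ORC6 were thus above acidosis in both lactate-containing media, by tests that share the acidosis libraries. PCNA did not pass in any of these comparisons, with 95% intervals of -0.07 to 0.27, -0.01 to 0.31 and -0.10 to 0.21 for lactic acidosis minus lactosis, lactic acidosis minus acidosis and lactosis minus acidosis.

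These calls rest on the spread among treated libraries. In 1 limma fit over all groups, whose spread takes in the control libraries, ORC6 between lactic acidosis and acidosis was the only call left among the 20 genes of all tables. Without acidosis replicate 2, 2 of 20 genes were higher in lactosis than in acidosis. After rescaling, 6 genes instead of 1 were lower in lactic acidosis than in lactosis, namely CCNE1, CDC45, CLSPN, DSCC1, E2F1 and POLE3. POLE2 stayed higher. Lactic acidosis against acidosis then had 7 of 21 genes higher and 0 lower. The smaller number of calls between lactic acidosis and lactosis thus depended on the scale of the values.

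**Figure D5:**
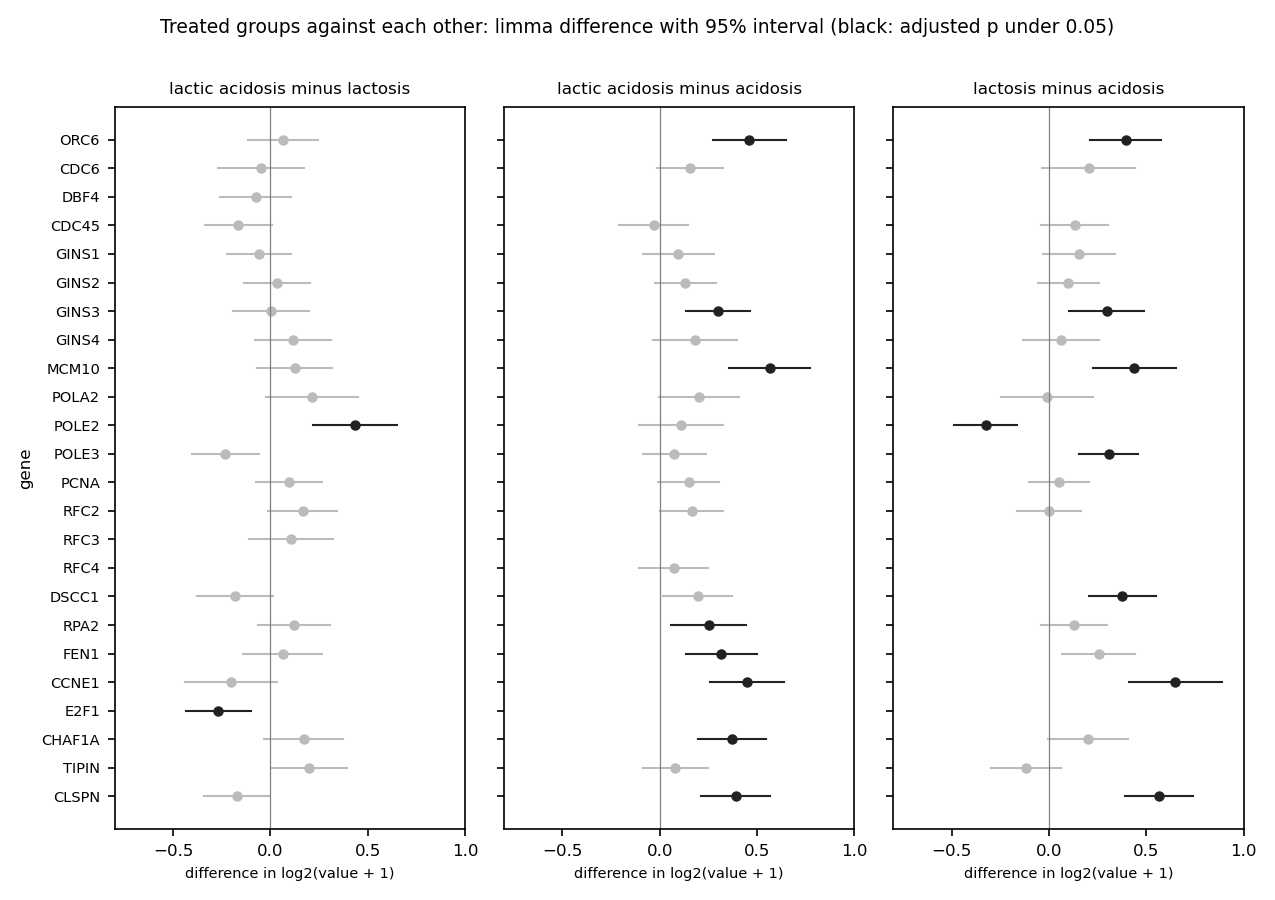
Limma difference in log2(deposited value + 1) between treated groups for each replication gene listed in both tables, with its 95% interval; black marks an adjusted p under 0.05 and an empty row a gene missing from a table. In the first panel most intervals lie across 0. Those of POLE2 and TIPIN lie above it and those of E2F1, POLE3 and CLSPN below it, with POLE2 and E2F1 black. MCM10, CCNE1, CLSPN and ORC6 lie above 0 in both panels against acidosis.

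Genes around the replication list were read from 9 further lists of the cell cycle and of markers. Over all listed genes, 58.9% were listed higher and 41.1% lower in the lactic acidosis table, 59.3% and 40.7% in the lactosis table, and 61.1% and 38.9% in the acidosis table. Of 24 genes of G1 to S control, 12 were listed higher and 1 lower in lactic acidosis, 11 and 1 in lactosis, and 8 and 0 in acidosis, where 58.9%, 59.3% and 61.1% of all listed genes were higher. Limma called 12, 11 and 8 of them higher, and 55.3%, 46.5% and 35.9% of all listed genes, those listed lower included. CCND1, which encodes cyclin D1, stood at 201.48, 191.95 and 201.58 in lactic acidosis, 163.64, 139.87 and 183.92 in lactosis, 107.05, 90.26 and 85.99 in acidosis, and 32.39, 54.01 and 71.92 in control. It was higher in every treated library than in any control library, by log2 differences of 1.96 (adjusted p = 0.000347, limma), 1.67 (adjusted p = 0.00125) and 0.89 (adjusted p = 0.00850) in lactic acidosis, lactosis and acidosis. CCND3 rose in all 3 groups (1.07, 0.91 and 0.72 by limma), as did MYBL2, a transcription factor of proliferating cells (1.13, 0.63 and 0.63). CCND2 was listed in lactic acidosis, at 1.04 by limma.

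The 7 CDK inhibitors had no member listed higher, while 2, 1 and 1 were listed lower in lactic acidosis, lactosis and acidosis, as were 41.1%, 40.7% and 38.9% of all listed genes. CDKN1B, which encodes p27, stood at 53.08, 56.39 and 51.04 in lactic acidosis, 67.53, 57.71 and 62.00 in lactosis, 67.03, 65.33 and 65.73 in acidosis, and 65.74, 79.96 and 82.92 in control. It fell in lactic acidosis (-0.50, adjusted p = 0.0111, limma), while -0.28 in lactosis (adjusted p = 0.0983) and -0.20 in acidosis (adjusted p = 0.248) did not pass. CDKN2D fell in lactic acidosis (-0.45, adjusted p = 0.0101, limma) and is not listed in the other tables.

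Other replication genes outside the 58, 33 in all, were listed higher in 11 cases and lower in 2 in lactic acidosis, 8 and 1 in lactosis, and 7 and 1 in acidosis. The shares over all listed genes were 58.9% higher and 41.1% lower for lactic acidosis, 59.3% and 40.7% for lactosis, and 61.1% and 38.9% for acidosis. RRM2B, the ribonucleotide reductase subunit that p53 induces, was listed lower in each group and fell by limma in lactic acidosis (-0.53, adjusted p = 0.00707) and lactosis (-0.64, adjusted p = 0.00519). TOP1, CHTF18 and RECQL4 were listed higher in lactic acidosis, at 0.42, 0.77 and 0.57 as log2 fold change from the authors' deposited table. Of 22 checkpoint and repair genes, 7, 4 and 4 were listed higher in lactic acidosis, lactosis and acidosis, and limma called all of these. None was listed lower. The shares of all listed genes that limma called higher, genes listed lower included, were 55.3%, 46.5% and 35.9%. In lactic acidosis RAD54L rose by 0.88, the nuclease EXO1 by 1.19 and the chromatin remodeller HELLS by 0.83.

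Of 28 mitosis genes, the authors listed 6, 4 and 3 as higher in lactic acidosis, lactosis and acidosis, and none as lower, where 58.9%, 59.3% and 61.1% of all listed genes were higher. AURKB, the mitotic kinase aurora B, stood at 196.71, 189.18 and 189.09 in lactic acidosis, 155.27, 144.77 and 147.28 in lactosis, 140.80, 155.32 and 155.83 in acidosis, and 64.19, 102.70 and 111.24 in control, and rose in each group. KIF23 rose in lactic acidosis and lactosis (1.04 and 0.71 by limma), and CENPA and UBE2C in lactic acidosis (0.45 and 0.42). E2F letters were found in 2 of 22 mitosis promoters (9.09%) and CCAAT in 18 of 22 (81.8%). Whether the share of listed genes differs between the mitosis and replication lists was not tested.

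Replication-dependent histones make mRNAs that mostly lack a poly(A) tail, and the libraries were poly(A) selected, so their values cover a part of these transcripts. Of 20 such genes, 9 were listed lower in lactic acidosis, 3 lower in acidosis, and 2 higher and 1 lower in lactosis, and limma called all of them. Of all listed genes 41.1%, 38.9% and 40.7% were lower in the lactic acidosis, acidosis and lactosis tables, and 59.3% were higher in the lactosis table. HIST1H2BK stood at 169.59, 184.01 and 179.86 in lactic acidosis, 505.61, 475.89 and 475.90 in lactosis, 184.05, 198.71 and 193.33 in acidosis, and 223.00, 263.20 and 292.13 in control. Lactosis was above control and both acid media below it, without overlap. HIST1H2BD fell in lactic acidosis and acidosis (-1.50 and -0.81 by limma), HIST1H1C in lactic acidosis (-1.30), and HIST2H2BE in all treated groups (-1.20, -0.94 and -0.97 in lactic acidosis, lactosis and acidosis).

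Of 15 p53 targets, 2 were listed higher and 6 lower in lactic acidosis, 2 and 3 in lactosis, and 1 and 1 in acidosis. The matching shares of all listed genes were 58.9% and 41.1%, 59.3% and 40.7%, and 61.1% and 38.9%. MDM2, which limits p53, fell in lactic acidosis (-0.69 by limma) and lactosis (-0.73), while ZMAT3 rose in both (0.69 and 0.62) and FAS in lactic acidosis (0.53). Of 10 biliary epithelium markers, 2 were listed higher and 2 lower in lactic acidosis, 2 lower in lactosis and 1 lower in acidosis, where 41.1%, 40.7% and 38.9% of all listed genes were lower. SOX9, a transcription factor of bile duct cells, rose in lactic acidosis (1.53, adjusted p = 0.00183, limma), as did CDH1 (0.41). MUC1 fell there (-1.14) at low values, 0.33, 0.33 and 0.35 against 2.30, 2.20 and 1.41 in control. KRT19 did not pass in lactic acidosis (-0.37, adjusted p = 0.0900, limma). CDH1 was the marker listed lower in acidosis, where its limma difference of -0.36 did not pass (adjusted p = 0.0878). Of the 12 muscle markers, TNNI2 and TNNT3 fell in lactic acidosis (-1.27 and -1.21 by limma), and MYH1 and MYH2 had values of 1.20 and 1.48 in lactic acidosis replicate 2 and at most 0.07 in replicates 1 and 3 and the control libraries.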

How the data were processed

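The 12 KKU-213A libraries were 3 in each of 4 groups. Per the submitters' processing notes, reads were aligned with STAR to hg38; the counting tool is not given in the sources used here. The authors deposited 3 tables with the column names of the EBSeq test. Their per-library values are a deposited signal, expression per gene length (TPM or FPKM, not stated). Their group means are a deposited signal on the count scale. Their fold changes are a deposited ratio, turned here to treated over control. The tables also give posterior probabilities, and that of equal expression was under 0.05 for each listed gene.

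Here, log2(value + 1) was fitted with limma 3.58.1 (R 4.3.3), without a filter, over all genes of a table, or of both tables for treated groups, two-sided, with Benjamini-Hochberg adjustment. Fold changes on this scale understate those of low genes. Control values were equal in all tables (largest difference 0). All columns of per-library values were mapped to samples by name. The fits were tested on simulated data. Promoters are from RefSeq, build GRCh38.p14; no promoter was found for MCM4, MCM5, GINS4, POLD3, DSCC1, RPA2, RPA3, DNA2 and CCNE2. Gene positions and overlaps are from GENCODE release 29 on GRCh38, with shared sequence counted over 40 windows of 75 bases per gene. Alternatives were pseudocounts of 0.1 and 5, a mean value of at least 1, the replicate number as a block, rescaling by library weights, 1 fit over all groups, a probability under 0.01, a 2-fold change, and leaving out each library.

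The 58 genes (members), lists and tests were chosen with earlier results of these data known. Values per library are given for each member listed in all 3 tables and for the member of each step with the largest deposited log2 fold change, and up to 4 genes per list were named by the lowest probability in lactic acidosis. A gene that this rule names is not reported here. CDT1, DBF4, PRIM1, RFC3, RFC4, RPA1, TK1, CCNE2, E2F1, E2F2 and CHAF1B are given beside these as the remaining listed members. Tables and plots were made in Python 3.11.15 with pandas 2.3.3, numpy 2.4.6, matplotlib 3.10.9 and scipy 1.17.1.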

Additional observations from a re-analysis of the deposited data

Results flagged for a closer look

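These replication genes differed between treated groups in a direct limma test at an adjusted p under 0.05, and each value is a difference in log2(value + 1). Lactic acidosis minus lactosis was 0.43 for POLE2 and -0.27 for E2F1. Lactic acidosis minus acidosis was 0.56 for MCM10, 0.46 for ORC6, 0.45 for CCNE1, 0.39 for CLSPN, 0.37 for CHAF1A, 0.32 for FEN1, 0.30 for GINS3 and 0.25 for RPA2. Lactosis minus acidosis was 0.65 for CCNE1, 0.56 for CLSPN, 0.44 for MCM10, 0.39 for ORC6, 0.38 for DSCC1, 0.31 for POLE3, 0.30 for GINS3 and -0.32 for POLE2. POLE2 was thus lower in lactosis than in both acid media, by tests that share the lactosis libraries. RPA2 is the smallest of these and did not pass under 7 of its alternatives, rescaling among them (0.15). The genes tested were those listed against the shared control in both tables, and lactic acidosis and acidosis media differed in pH as well as in lactate.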

How the results depend on the processing

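Over 95 results for single replication genes, 1263 alternative values were computed; 1098 kept their direction and their side of the threshold, 142 lost the call, 23 gained it and none turned round. Leaving out each library in turn, limma called between 14 and 26 genes higher in lactic acidosis, between 14 and 26 in lactosis with 0 to 1 lower, and between 5 and 22 in acidosis, against 25, 25 and 20 with all libraries. The lowest counts were 14 without lactic acidosis replicate 2, 15 and 14 without lactosis replicates 1 and 3, and 12 and 5 without acidosis replicates 2 and 1. The median log2 differences there were 0.94 (against 0.97), 1.00 and 0.94 (against 0.99), and 0.70 and 0.67 (against 0.69). Rescaling by the library weights lowered the median of all listed genes by 0.10 on the log2 scale in lactic acidosis, and CDT1 became the 1 gene lower in lactosis without control replicate 1, after rescaling, and under both together, an alternative chosen after seeing the data. The median log2 differences with both were 0.61, 0.70 and 0.49 in lactic acidosis, lactosis and acidosis. With a pseudocount of 0.1, 14 genes passed in acidosis. Held to a 2-fold change, the genes listed higher numbered 7, 9 and 4, and those listed lower in lactosis 0. Between treated groups, leaving out libraries gave 1 higher and 0 to 1 lower for lactic acidosis against lactosis, 6 to 11 higher against acidosis, and 2 to 9 higher and 0 to 1 lower for lactosis against acidosis. The 2 and the 0 came without acidosis replicate 2, and lactosis replicate 1 left out also gave 0 lower. E2F1 lost its call in lactic acidosis against lactosis without any of the lactic acidosis libraries or lactosis replicate 1. That comparison had 2 lower with a pseudocount of 5, 6 after rescaling and 0 with the replicate block. The limma fit over all groups left 0 higher and 0 lower between lactic acidosis and lactosis (0 at an unadjusted p under 0.05), 1 higher between lactic acidosis and acidosis, and 0 and 0 between lactosis and acidosis (3 higher unadjusted). This fit takes its spread from control as well. Shares over all listed genes are not given for these alternatives, so their counts describe the replication genes without a background.

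Same-numbered libraries had deviations correlated between -0.39 and 0.22 over 18 pairs, 6 of them above 0.1. With 3 libraries per group, this cannot settle whether the numbers pair the samples. With the replicate number as a block, 26, 25 and 17 genes were higher in lactic acidosis, lactosis and acidosis, and 1, 7 and 6 between the treated groups.

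Limits: the tables hold only genes called by the authors, so the 25 genes without values may or may not have changed. Depth is unknown, 3 libraries per group share 1 set of controls, and values per length were deposited in place of counts.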
